A study of Mus musculus with 12 samples.

Results

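The response of wild-type (WT) mouse macrophages to interleukin-4 (IL-4) was described from the 3 WT M0 and the 3 WT M2 libraries, 6 of the 12 libraries of the series. All genes of the deposited table of these 6 libraries were members. Of its 56941 genes, 26379 had a count in at least 1 of the 6 libraries and 14266 passed the filter on low counts and were tested. The study compared macrophages of WT and miR-210 knock-out (KO) C57Bl/6J mice, and the other 6 libraries are the miR-210 KO M0 and M2 libraries. WT mice came from breeding mice heterozygous for a miR-210 deletion, which had been made with a floxed allele and Gata-1 Cre. Bone marrow monocytes, enriched by removing cells of other types, were grown for 7 days in medium with L929-conditioned medium, taken from mouse fibroblasts and rich in the growth factor M-CSF, to give M0 macrophages. WT M2 macrophages then received 20 ng/mL IL-4 for 72 h, and WT M0 wells stayed without IL-4 for that time. The ages of the mice and whether a library held 1 mouse or several were not given in the sources used here.

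IL-4 is a cytokine of type 2 immunity that macrophages sense through IL4RA paired with the common gamma chain or IL13RA1. The receptor's Janus kinases phosphorylate STAT6, which enters the nucleus and binds DNA at palindromic sites. In mouse macrophages this state, called alternative activation or M2, is known for arginase 1, chitinase-like and resistin-like proteins, the mannose receptor and cell fusion, in contrast to the interferon- and microbe-driven state.

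Totals ranged over 7930525 to 9753468 counts for the WT M0 libraries and 8281164 to 9585223 for the WT M2 libraries. The library numbered 2 of WT M0 stood somewhat apart: its counts differed from those of the other WT M0 libraries by a chi-square of 7.71 and 5.67 per degree of freedom, against 2.69 between the other two and 2.04 to 3.21 within WT M2. Between the states the same measure was 64.6 to 71.9. In that library the interferon-stimulated genes were lower and the mitotic genes higher than in the other WT M0 libraries, so counts of these groups are given with and without it. Every group carries a separate batch in the labels, which means that batch and state cannot be told apart. Nothing says that the 3 libraries of a group came from separate mice, so p values measure the spread between these libraries, which may be technical. In bulk RNA, fewer cells of a type and less RNA per cell cannot be told apart. A fold change here is WT M2 over WT M0, and normalized counts are scaled to a common library size.

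Calls were made with edgeR's quasi-likelihood test, at a Benjamini-Hochberg adjusted p under 0.05 and a change of more than 1.2-fold in either direction, the limits of the study. Of the 14266 genes tested, 3150 (22.1%) were called higher and 2987 (20.9%) lower in WT M2, in all 43.0%. The median log2 fold change over all genes tested was -0.0012. The counts in the 2 directions were close, but the sizes were not: 1211 genes (8.49%) rose and 831 (5.83%) fell by more than 1 on the log2 scale, 293 rose and 72 fell by more than 3, and 136 rose and 10 fell by more than 5. Genes that had at most 3 counts in every library of the other state numbered 146 among the rises, of which 99 were protein-coding and 36 had no count at all in WT M0. They numbered 24 among the falls, with 13 protein-coding and 1 without a count in WT M2. For such genes a lower bound of the fold is given, against 3 counts in each library of the lower state. Under the study's rule for polarization, which keeps protein-coding genes with an average normalized count over 10, 5055 of 11135 genes (45.4%) were called, 2625 higher and 2430 lower.

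**Figure D1:**
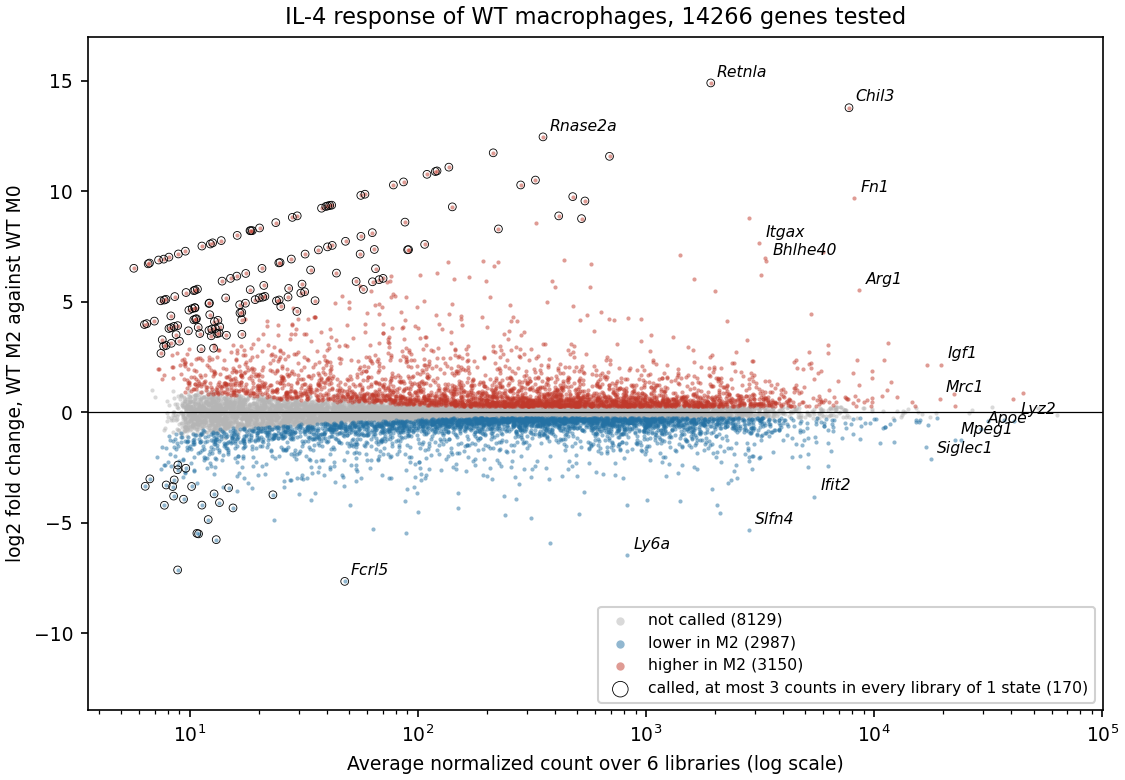
Log2 fold change of each of the 14266 genes tested (y axis) against its average normalized count over the 6 WT libraries (x axis, log scale), with genes called higher in red, called lower in blue and the others in grey. Circled genes had at most 3 counts in every library of 1 state, and their plotted fold change depends on the prior count of the fit. The rises reach much further from 0 than the falls.

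The 4 markers used to check the state, Arg1, Retnla, Mrc1 and Fn1, were all called higher in WT M2. Arg1, which encodes the arginase that splits arginine into ornithine and urea, had normalized counts of 451, 339 and 306 in WT M0 against 17377, 17090 and 16027 in WT M2. The log2 fold change was 5.53 ± 0.12 (SE, adjusted p = 1.65e-12, edgeR). Retnla, the resistin-like protein also called RELM alpha or FIZZ1, had no count in any WT M0 library and 3482, 4218 and 3836 normalized counts in WT M2, at least 1303-fold higher. Fn1, which encodes fibronectin, went from 10.2, 22.1 and 25.2 to 16842, 15031 and 17128 (log2 fold change 9.68 ± 0.15 SE, adjusted p = 6.2e-14). Mrc1, the mannose receptor CD206, was already abundant in WT M0, at 13478, 18303 and 14098, and had 24693, 23239 and 22440 in WT M2 (log2 fold change 0.62 ± 0.10 SE, adjusted p = 0.000222). The states did not overlap for any of the 4, and the change was by far the smallest for Mrc1. Together they held 0.156% to 0.215% of the counts in WT M0 and 0.651% to 0.690% in WT M2 (two-sided exact permutation test, p = 0.1, the smallest that 3 libraries against 3 allow).

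The general macrophage markers showed that both states held macrophages. Cd68, Adgre1 (F4/80) and Csf1r, at 9221, 9095 and 7262 mean normalized counts in WT M0 against 10305, 7661 and 7577 in WT M2, were not called. Adgre1 was called lower, with a log2 fold change of -0.31, when the library numbered 1 of WT M0 was left out. Of the 9 macrophage markers 2 were called higher, among them Itgam, and 4 lower. Gm49368 holds 70.9% of the 50-base stretches of Itgam, so the counts of Itgam are uncertain. The 4 called lower were Fcgr1, the high-affinity IgG receptor CD64 (log2 fold change -2.97), Mertk (-1.33), Cd14 (-0.51) and Lyz2 (-0.38). The markers that fell include CD64 and MERTK, which are commonly used to identify macrophages by flow cytometry.

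The 12 largest fitted rises among called protein-coding genes with an average normalized count over 10 were Retnla, Chil3, Rnase2a, Scn3a, Ocstamp, Igsf3, Il31ra, Map2, Cdh1, Kcnd3, Penk and Flt1. All had at most 3 counts in each WT M0 library. Chil3, the chitinase-like protein Ym1, had normalized counts of 3.39, 0 and 0 in WT M0 against 15435, 16080 and 15061 in WT M2, at least 5260-fold higher. Rnase2a, a secreted ribonuclease of the eosinophil-associated family, was at 0 in WT M0 against at 535, 809 and 776 in WT M2 (at least 240-fold). Ocstamp, which encodes a membrane protein needed for the fusion of osteoclasts and macrophages, had 1 count in 1 WT M0 library and 1231, 1109 and 1810 normalized counts in WT M2 (at least 469-fold). Several of the 12 are better known from other tissues. Scn3a is a neuronal sodium channel subunit (0 in WT M0, 428 ± 67.1 in WT M2, SD, n = 3, at least 145-fold), Kcnd3 a potassium channel subunit (at least 222-fold), Map2 a microtubule-binding protein of dendrites (at least 80.8-fold) and Penk the precursor of the enkephalins (at least 58.6-fold). Cdh1, or E-cadherin, was at least 74.2-fold higher, Flt1, a receptor of VEGF, at least 191-fold, Il31ra, a subunit of the IL-31 receptor, at least 82.2-fold, and Igsf3 at least 92.6-fold. The WT M2 libraries lay close together for most of these, with the widest spread for Ocstamp.

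Normalized counts per kilobase of annotated exon compare genes only roughly, since removing duplicates can lower the counts of short and abundant genes. Ranked by this level, the largest gains were in Chil3 (0.646 to 8872), Retnla (0 to 6222), Lgals3 (7080 to 12428), Arg1 (114 to 5268) and Cd300ld (1034 to 5344). Lgals3, the beta-galactoside-binding galectin-3, and Cd300ld, a surface receptor of the CD300 family, thus joined the M2 markers by level though their folds were moderate (log2 fold change 0.81 and 2.37). The largest losses per kilobase were in Mpeg1, the pore-forming perforin-2 (7302 to 3032), Apoe (9193 to 5386), Lyz2 (13938 to 10734), C1qa, a chain of complement C1q (8537 to 5351), and Siglec1, the sialic acid-binding receptor CD169 (4044 to 919). Lyz2 remained among the most abundant transcripts per kilobase in WT M2 despite its loss.

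The 12 largest fitted falls by the same rule were Fcrl5, Ly6a, Ifit3b, Wfdc18, Chic1, Slc16a9, Fcrl1, Slfn4, Adgb, Cfb, Ms4a4c and Klra2. Ly6a, which encodes Sca-1, had 2413, 798 and 1691 normalized counts in WT M0 against 33.8, 10.3 and 11 in WT M2 (log2 fold change -6.47 ± 0.47 SE, adjusted p = 8.99e-08), or -7.24 with WT M2 1 left out. Slfn4, of the interferon-inducible Schlafen family, had 7251, 3506 and 5815 against 152, 134 and 118 (log2 fold change -5.35 ± 0.24 SE). In both the library numbered 2 of WT M0 was the lowest of its state, by a factor that left the states far apart. Klra2, a C-type lectin-like receptor, varied little within WT M0, at 459, 461 and 477, and was at 22.2, 11.3 and 22.1 in WT M2. Fcrl5, an Fc receptor-like protein, fell at least 30.7-fold, from 119, 58.1 and 109 to at most 1 count, and its relative Fcrl1 from 174 ± 66.6 to 3.67 ± 1.77 (SD, n = 3). Ms4a4c, at 937, 219 and 654, fell to 21.1, 15.0 and 28.7. Cfb, complement factor B, fell from 45.4 ± 20.8 to 1.41 ± 2.44 (log2 fold change -4.90, and -8.50 and -4.29 without the libraries numbered 1 and 2 of WT M2), but Gm20547, which overlaps it, holds 65.3% of its stretches of 50 bases, so its counts are uncertain. Adgb, or androglobin, fell from 124 ± 15.8 to 3.08 ± 1.03. Wfdc18, Chic1 and Slc16a9 fell at least 8.31-, 6.94- and 6.82-fold.

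**Figure D2:**
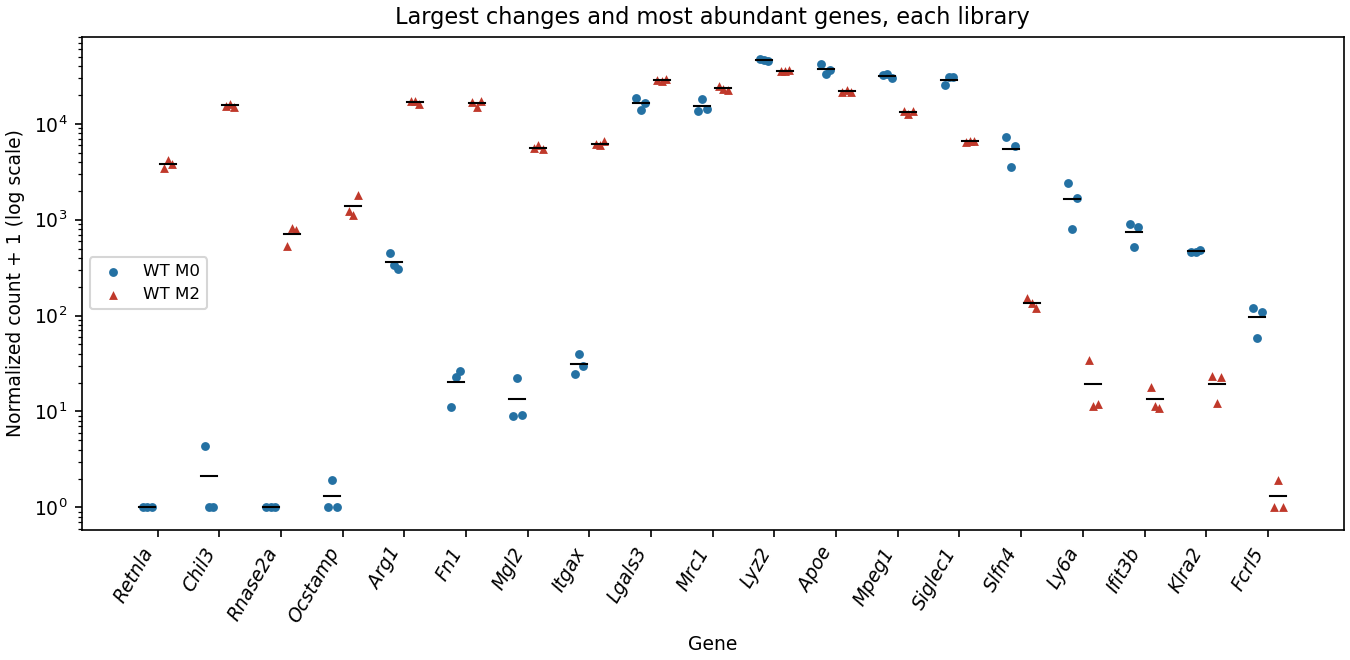
Normalized count + 1 (y axis, log scale) of 19 genes (x axis) in each library, with WT M0 libraries as blue circles, WT M2 libraries as red triangles and the mean of each state as a black line. The states do not overlap for any gene shown, and Ly6a, Slfn4 and Ifit3b show the low position of 1 WT M0 library.

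Gene lists are described by how many of their tested members were called higher or lower, to be read against 22.1% and 20.9% of all genes tested, and by the median log2 fold change of the members, against -0.0012 over all genes tested. Several lists were drawn up from what is known of M2 macrophages, so a direction in them is not independent evidence. Of 25 tested alternative activation markers, 22 were called higher and 1 lower, with a median log2 fold change of 5.53, or 5.22 with genes near 0 in WT M0 set to their lower bounds. Besides the genes above, Mgl2, the galactose-type lectin CD301b, went from 7.91, 21.2 and 8.10 normalized counts to 5585, 5947 and 5395 (log2 fold change 8.79 ± 0.16 SE, or 9.43 with WT M0 2 left out). Slc7a2, a transporter of cationic amino acids, went from 73.4, 90.4 and 68.4 to 11161, 11743 and 12763 (log2 fold change 7.26). Pdcd1lg2, the PD-1 ligand PD-L2, was at least 353-fold higher, Ccl24 at least 60.7-fold and Chil4, or Ym2, at least 27.8-fold. F13a1, the A chain of coagulation factor XIII and often counted as an M2 marker, fell instead, from 641, 1817 and 604 normalized counts to 394 ± 56.1 (SD, n = 3, log2 fold change -1.38 ± 0.33 SE), with 1 WT M0 library far above the others. Without that library, numbered 2, the log2 fold change was -0.67 (adjusted p = 3.99e-05, edgeR). Il1rn, the IL-1 receptor antagonist, at 0.27, and the chemokine Ccl8, at 0.01, were not called, but Il1rn was called higher (0.49) without the library numbered 1 of WT M0.

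The small secreted protein families moved unevenly. In the chitinase family 3 of 4 tested members rose and Ctbs fell (-0.33), and Retnla was the single tested member of the resistin family. In the RNase A and Ear family 4 of 6 were called higher, none lower: beside Rnase2a, Ear2 rose at least 16.5-fold, Ang2 at least 4.94-fold and Rnase4 by a log2 fold change of 0.59 (46.4% of its 50-base stretches occur in other genes), while Ang (0.25) and Rnase6 (0.16) were not called. The median of this family was 3.68, or 1.45 at the lower bounds. Other genes, mostly Chil4, hold 27.7% of the 50-base stretches of Chil3, so part of the Chil4 count may belong to its far more abundant relative. Retnla and Rnase2a shared none with another gene.

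The promoters of the genes that rose most were searched for the STAT-type palindromes TTCNNNNGAA, the spacing STAT6 prefers, and TTCNNNGAA, from 250 bases before to 50 after the RefSeq starts in GRCm38.p6. Both are their own reverse complement, so the strands give the same matches. Matches were found in genes of both directions. Stretches of 5 genes with large rises, and of Klra2, among the 12 largest falls, are shown in gene orientation with the match in capitals, since these genes carry some of the largest changes:
Retnla: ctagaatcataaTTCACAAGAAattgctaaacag
Pdcd1lg2: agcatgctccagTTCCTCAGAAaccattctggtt
Chil3: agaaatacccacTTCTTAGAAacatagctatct
Chil4: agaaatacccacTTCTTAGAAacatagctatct
Il31ra: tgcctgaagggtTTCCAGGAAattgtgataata
Klra2: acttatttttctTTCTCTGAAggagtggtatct
The matches begin at -145 (chr16:48842452-48842485, plus strand), -82 (chr19:29410825-29410858, plus strand), -172 (chr3:106167716-106167748, minus strand), -200 (chr3:106219659-106219691, minus strand), -191 (chr13:112580833-112580865, minus strand) and -190 (chr6:131247532-131247564, minus strand) relative to the start. Cd36, which rose, and Ifi213, which fell, also hold a TTCNNNNGAA match. The Chil3 and Chil4 stretches are identical. The letters TTCNNNNGAA were in 9.73% of the promoters of genes called higher with a log2 fold change over 3, in 6.61% at a log2 fold change over 1, in 5.24% of genes called lower, in 6.03% at a log2 fold change under -1, in 5.53% of genes not called, and in 6.95% of all 32851 promoters. TTCNNNGAA was in 7.96%, 5.51%, 6.95%, 6.70%, 6.95% and 8.30% of the same groups. The 9.73% stands for 22 of 226 promoters. Over the promoters of all tested genes TTCNNNNGAA was in 5.63% and TTCNNNGAA in 6.7%. In the 37 promoters of the interferon-stimulated genes called lower that matched the table, the 2 were in 18.9% and 21.6%. In the 16 matched promoters of the alternative activation markers called higher they were in 25.0% (4 promoters) and 12.5%. A match is a description of the letters in this window.

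The IL-4 receptor and STAT6 signalling list did not move as a whole: of 19 tested members 6 were called higher and 8 lower, and the median log2 fold change was -0.04. The largest rises were in Socs2, Cish and Socs1, feedback inhibitors of cytokine receptors. Socs2 went from 6.78, 4.61 and 0.900 normalized counts to 410, 492 and 439, Cish from 21.5, 23.1 and 20.7 to 1093, 1078 and 1178, and Socs1 from 49.7, 41.5 and 64.8 to 1148, 1320 and 1180 (log2 fold changes 6.80, 5.67 and 4.54). All 3 were low in every WT M0 library and far apart from it in WT M2. Socs3, of the same family, fell (-0.96). Il4ra fell from 4072 ± 414 to 2045 ± 182 (log2 fold change -0.99 ± 0.09 SE). Of the chains that pair with it, Il13ra1 fell from 388 to 138 (-1.49) and Il2rg, the common gamma chain, rose (0.69). Stat6 itself (-0.04) and Jak1 (-0.01) were not called, Jak2 (1.13) and Irs2, an adaptor of the insulin and IL-4 receptors (0.50), rose and Jak3 fell (-0.87).

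Among 38 transcription factors linked to macrophage polarization 20 were called higher and 9 lower, with a median of 0.49. Bhlhe40, a basic helix-loop-helix repressor, had the largest rise, from 70.0, 50.7 and 56.7 to 6610, 6020 and 7332 normalized counts (log2 fold change 6.82 ± 0.12 SE), while its paralog Bhlhe41 fell (-1.64). Egr2 (4.11), Irf4 (3.62), Myc (2.85) and Klf4 (2.66) followed, all known targets of IL-4 in macrophages, and Pparg rose by 2.04. The falls were led by Irf7, a factor of the type I interferon response (-3.08), Maf (-1.74) and Bhlhe41, with Irf8 at -0.78. Spi1 (PU.1), Irf5 and Zeb2 were not called, at 0.24, 0.19 and 0.17.

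The interferon-stimulated genes fell almost without exception. Of 44 tested, 43 were called lower and none higher, with a median log2 fold change of -1.94, and Gbp2, a guanylate-binding protein, was not called (0.17). Ifit3 had 4990, 2857 and 4300 normalized counts in WT M0 against 202, 165 and 146 in WT M2 (log2 fold change -4.56 ± 0.19 SE), Ifit2 13014, 7111 and 10400 against 699, 792 and 653 (-3.83), and Ifit3b, Iigp1 and Ifi213 fell by 5.91, 4.59 and 4.20 on the log2 scale. Summed over the list, the level was 15210, 10940 and 13687 CPM in WT M0 (counts scaled to a common library total) and 3757, 4012 and 3895 in WT M2, so even the lowest WT M0 library was far above WT M2. Without that library 43 were again called lower, with a median of -1.99. Other genes, mostly Ifit3, hold 48.0% of the 50-base stretches of Ifit3b, and reads can be divided between the pair.

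The interferon-stimulated response element was searched for as GAAANNGAAA and its reverse complement in the same promoter windows. It was in 67.6% of the 37 promoters of the called interferon-stimulated genes that matched the RefSeq table, in 12.6% of promoters of genes called lower with a log2 fold change under -1, in 2.61% of those called higher with a log2 fold change over 1, and in 3.44% of all promoters. Stretches of Ifit3b, Ifit3 and Ifi213, 3 of the genes with large falls, are shown with the match in capitals:
Ifit3b: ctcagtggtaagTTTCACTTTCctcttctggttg
Ifit3: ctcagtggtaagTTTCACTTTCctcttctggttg
Ifi213: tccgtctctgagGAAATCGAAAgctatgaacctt
They lie at -188 (chr19:34607757-34607790, plus strand), -156 (chr19:34583361-34583394, plus strand) and -73 (chr1:173599324-173599357, minus strand) of GRCm38.p6. The first 2 are identical and each has a further match close by.

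Among 30 genes of inflammatory activation 9 were called higher and 13 lower, median -0.25. The largest falls were in Tlr9, an endosomal sensor of DNA (-4.34), and the formyl peptide receptors Fpr1 (1278, 1800 and 1600 to 75, 77 and 103 normalized counts, log2 fold change -4.21) and Fpr2 (-3.78, with 35.8% of its 50-base stretches found in other genes). Il10 fell from 116, 57.2 and 86.4 to 10.6, 5.63 and 8.82 (-3.36), and Nfkbiz (-2.28), Tlr2 (-1.92) and Tlr7 (-1.42) fell too. Tlr4 (0.36), Nfkb1 (0.93) and Tnfaip3 (0.81) rose, and Tnf (-0.22) was not called, but was called lower (-0.56) without the library numbered 3 of WT M2. The 28 tested chemokines and chemokine receptors were divided, with 9 higher and 10 lower and a median of 0.02. Beside Ccl24, the rises included Cxcl14 (3.03), Ccl22 (2.35), Ccr3 (2.24), Ccl9 (1.85) and Ppbp (1.75), and the falls included the inflammatory chemokines Ccl3 (1288 to 179, -2.85), Ccl4 (1050 to 160, -2.72) and Ccl5 (-2.38, or -3.00 with WT M2 1 left out), the receptor Cxcr3 (-3.72) and Ccl2 (-1.09).

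Genes of antigen presentation by MHC class II rose: 8 of 11 tested members were called higher and none lower, median 0.79. Ciita, the master regulator of these genes, went from 1.13, 3.69 and 0.900 to 33.8, 66.7 and 64.0 normalized counts (log2 fold change 4.73, or 5.61 with WT M0 2 left out), H2-Eb1 rose by 2.49, H2-Aa by 1.78 and Cd74, the invariant chain, by 1.68. Rfx5, Rfxap and Rfxank, the DNA-binding subunits that recruit CIITA, were not called (-0.11, 0.03 and 0.01). In the complement list 4 of 18 rose and 10 fell, median -0.33. The rises were the integrins Itgax (23.7, 38.7 and 28.8 to 6157, 5976 and 6554, log2 fold change 7.65), Itgb2 (1.40) and Itgam (0.61, uncertain), which form complement receptors, and C3 (1.63), while Cfb, C4b (-3.66, with 33.7% of its stretches shared with other genes), the decay factor Cd55 (-2.84) and C1qa (-0.67) fell. Of 8 Fc receptor genes 1 rose and 5 fell, led by Fcrl1 and Fcgr1, whereas Fcgr2b (0.02) and Fcgr3 (0.14) were not called. In the Ms4a family of membrane proteins 6 of 7 fell, among them Ms4a6b (-3.21) and Ms4a6c (-2.49), and Ms4a4a rose (0.70).

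The lectin and scavenger receptors moved in both directions, with 12 of 27 higher and 12 lower, median 0.09. Clec7a, the beta-glucan receptor dectin-1, went from 512, 402 and 465 to 9971, 10054 and 10188 normalized counts (4.46 ± 0.09 SE), and Olr1 rose at least 12.7-fold. The falls included the receptors Axl (-2.78) and Mertk (-1.33) and their ligand Gas6 (-2.05), which bridges them to dying cells, and Cd5l (-2.53), Clec4n (-2.20) and Stab1 (-1.88). The scavenger receptors Cd36 (0.98) and Scarb1 (0.45) rose. Msr1 and Clec4e were not called (0.09 and -0.29), and Clec4e was called lower (-0.74) without the library numbered 3 of WT M2.

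Genes of macrophage fusion rose in 13 of 20 cases and fell in 2, median 1.40. Dcstamp, with Ocstamp a membrane protein required for multinucleation, had 2.26, 1.84 and 0 normalized counts in WT M0 against 344, 382 and 622 in WT M2 (at least 152-fold), Itgb3 rose by 5.96, Acp5 by 3.07 and the proton pump subunit Atp6v0d2 by 3.06. Nfatc1, the factor that drives osteoclast formation, fell (-0.66), as did Cd47 (-0.53). Of 34 matrix and integrin genes 19 were called higher and 7 lower, median 0.69, including the metalloproteinases Mmp9 (2.35), Mmp12 (2.14) and Mmp13 (1.56), while Mmp27 fell (-1.86) and Spp1, or osteopontin, was not called (-0.01). The repair growth factors were mixed, with 7 of 22 higher and 9 lower, median -0.13: Hbegf went from 16.9, 13.8 and 15.3 to 734, 699 and 928 normalized counts (5.67), Igf1 from 6699, 7903 and 6980 to 31961, 32712 and 31452 (2.15), and Pdgfa, Pdgfb and Fgf2 rose by 2.48, 2.38 and 2.80. Pdgfc (-1.82), Vegfb (-1.38) and Gdf15 (-1.38) fell.

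**Figure D3:**
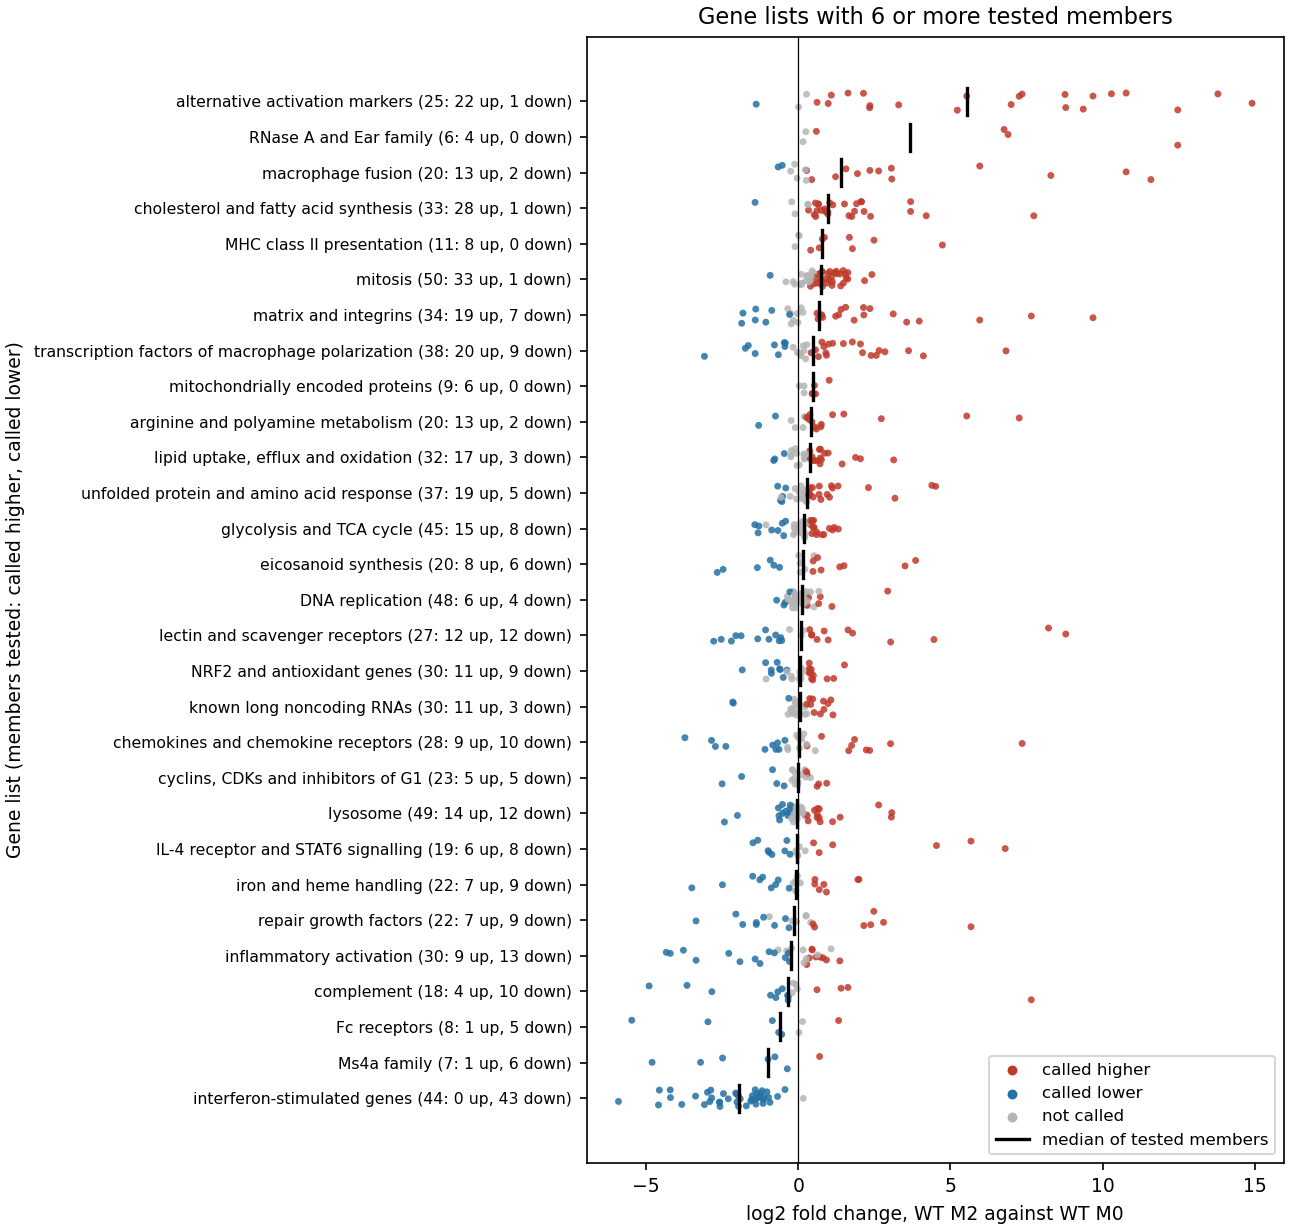
Log2 fold change (x axis) of the tested members of each gene list with 6 or more tested members (y axis), with called genes in red (higher) and blue (lower), genes not called in grey, and the median of the tested members as a black bar. Alternative activation markers have the highest median, 5.53, and interferon-stimulated genes the lowest, -1.94.

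Of 50 mitotic genes 33 were called higher and 1, Pttg1 (-0.93), lower, with a median of 0.75. The largest rises were in Kif20a, a kinesin of cytokinesis (26.0, 28.6 and 9.0 to 114, 115 and 106 normalized counts, log2 fold change 2.42 ± 0.26 SE), Ube2c (2.18), Cdc25c (1.63), Prc1 (1.63) and Cdc20, the activator of the anaphase-promoting complex (28.2, 19.4 and 14.4 to 52.8, 57.3 and 71.7, 1.57). The phosphatase Cdc25b rose by 0.40 and Cdca2 by 0.66. Of 48 DNA replication genes 6 were called higher and 4 lower, median 0.11. The rises included Dut, the dUTPase (2.94), Rfc5 (1.11) and Pcna (2203, 1872 and 2157 to 3444, 3523 and 3308, 0.72, with 31.8% of its stretches in other genes), and the falls Rfc1 (-0.47) and Rfc2 (-0.43). Without the library numbered 3 of WT M2, 2 were called lower. With 1 library left out at a time, 27 to 40 mitotic and 5 to 16 replication genes were called higher. DESeq2 called 30 and 5 higher. Without the WT M0 library numbered 2, mitosis had 40 called higher and 1 lower, and DNA replication 16 higher and 3 lower. The medians were then 1.10 and 0.20. In that library the mitotic genes summed to 583 CPM, against 424 and 375 in the other WT M0 libraries and 662 to 711 in WT M2, and the difference between the states was 0.023 percentage points of all counts (two-sided exact permutation test, p = 0.1, the smallest possible). The D-type cyclins fell: Ccnd1 from 2191, 3047 and 2644 to 862, 651 and 660 (-1.86), Ccnd2 (-2.50) and Ccnd3 (-0.85). In the whole list of cyclins, CDKs and inhibitors of G1, 5 of 23 were higher and 5 lower, median -0.02. Leaving out WT M0 1, WT M0 3 or WT M2 2 left 3 higher, and leaving out WT M0 2 gave 7 higher and 6 lower.

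The histone genes of the replication-dependent families were looked at after their values had been seen. Of 56 tested, 45 were called higher and 1, H2ac25, lower, with a median log2 fold change of 0.85 and a range from -0.71 to 2.11. The families differed in their counts, with 4 of 5 H1, 13 of 14 H2A, 13 of 14 H2B, 10 of 11 H3 and 5 of 12 H4 genes called higher and a median of 0.28 for H4. H1f5 went from 158, 198 and 123 to 414, 440 and 384 normalized counts (1.37 ± 0.13 SE). Without the library numbered 2 of WT M0, 44 were called higher. Some of these genes share much of their sequence, so reads can be divided or lost between them: 86.4% of the 50-base stretches of H2bc15 and 49.5% of those of H3c1 occur in another gene. H1f5 shared none with another gene. Their transcripts mostly lack a poly(A) tail, and the libraries were made by removing ribosomal RNA.

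**Figure D4:**
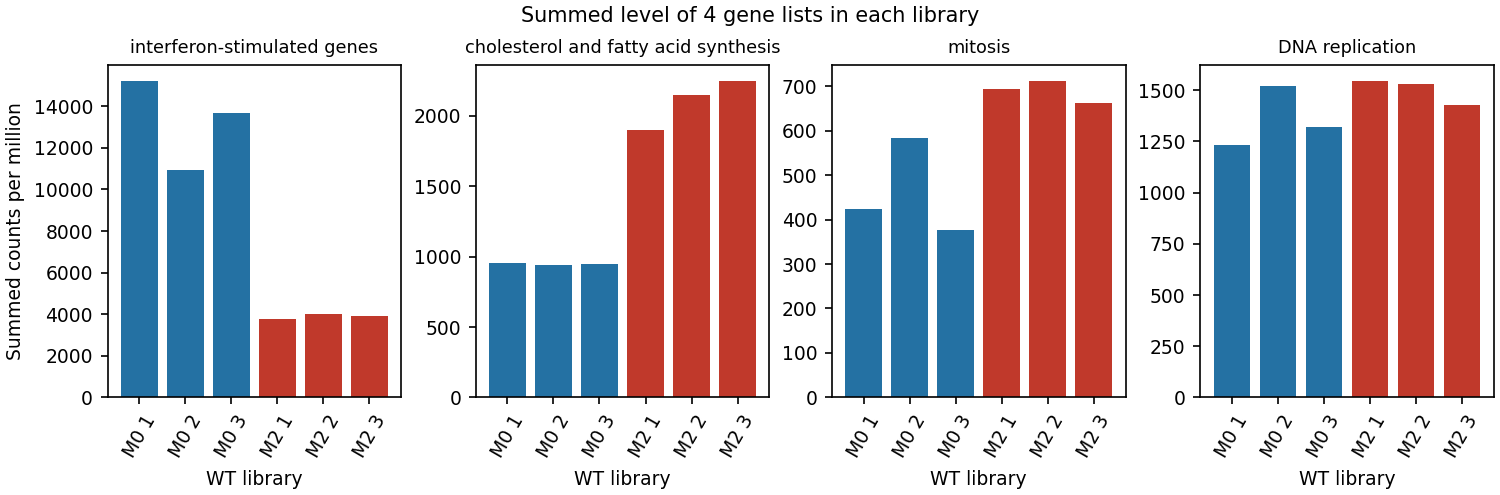
Summed CPM (y axes, from 0) of 4 gene lists in each WT library (x axes), WT M0 in blue and WT M2 in red. Interferon-stimulated genes are lower and sterol genes higher in every WT M2 library. The WT M0 library numbered 2 has the lowest interferon level and the highest mitotic and replication levels of its state.

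Genes of sterol and fatty acid synthesis rose: 28 of 33 tested were called higher and 1, Acss2 (-1.42), lower, with a median of 0.97. Scd2, a fatty acid desaturase, rose by 4.20 (4.94 with WT M0 1 left out), Sqle, squalene epoxidase, by 3.69 (31.6, 36.0 and 39.6 to 400, 495 and 502) and Idi1 by 2.38. Summed, the list stood at 953, 937 and 946 CPM in WT M0 against 1899, 2146 and 2245 in WT M2. Lipid uptake, efflux and oxidation genes were called higher in 17 of 32 cases and lower in 3, median 0.38, with Lpl, lipoprotein lipase, at 2374, 2312 and 2347 in WT M0 against 19947, 17948 and 23862 in WT M2 (3.13), Abcg1 at 1.88 (2.55 without the same library) and Cd36 at 0.98. Fabp5 (-0.81) and Apoe (-0.77) fell.

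In arginine and polyamine metabolism 13 of 20 were called higher and 2 lower, median 0.42. Next to Slc7a2 and Arg1, Ass1, which remakes arginine from citrulline, rose by 2.73 and Arg2 by 1.5 (48.3% of the Ass1 stretches occur in other genes), while the polyamine oxidases Paox (-1.30) and Smox (-0.75) fell and ornithine decarboxylase, Odc1, was not called (-0.23). Glycolysis and TCA cycle genes had 15 of 45 higher and 8 lower, median 0.17: Pfkp (1.32), Pfkfb4 (1.18) and the transporter Slc2a1 (1.02) rose, and Suclg2 (-1.43), Slc2a3 (-1.32) and Pfkfb3 (-1.29) fell. The unfolded protein and amino acid response list had 19 of 37 higher and 5 lower, median 0.30, led by the serine synthesis enzymes Phgdh (4.75 ± 2.91 to 114 ± 32.8, SD, n = 3, 4.51, or 5.16 with WT M0 3 left out) and Psat1 (49.6 to 1049, 4.39), with Chac1 (3.18) and Pdia4 (2.31). Of the Phgdh stretches 59.8% occur in other genes.

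Iron genes were divided, 7 of 22 higher and 9 lower, median -0.09. The largest rises were in transferrin, Trf (1.99), and its receptor Tfrc (1.96), while Cd163, the receptor for haemoglobin bound to haptoglobin, fell (-0.74). Slc40a1, the iron exporter ferroportin, fell from 3763, 3587 and 3358 to 308, 322 and 317 normalized counts (-3.50 ± 0.07 SE), and ceruloplasmin, Cp, by 2.49 on the log2 scale. Hmox1, heme oxygenase, fell by 0.89 on that scale. NRF2 and antioxidant genes had 11 of 30 higher and 9 lower, median 0.07, with Gpx1 at 1.52 and Gsta3 at -1.84. Eicosanoid genes had 8 of 20 higher and 6 lower, median 0.15: the cyclooxygenase Ptgs1 rose by 3.51 and the leukotriene receptor Ltb4r1 by 3.86, and the prostaglandin D2 synthase Hpgds fell from 4212 to 665 (-2.66). Lysosomal genes had 14 of 49 higher and 12 lower, median -0.03, with the cathepsins Ctsk (2.64) and Ctsl (1.37) up and Ctsc (-2.00) and Ctse (-2.43) down. Of 9 tested mitochondrially encoded protein genes 6 were called higher and none lower, median 0.47. mt-Nd6, the one read from the opposite strand, rose by 1.01, and mt-Co1 was not called (0.19). Other genes hold 100% of the stretches of mt-Co2, 99.9% of mt-Co3, 62.2% of mt-Nd4 and 51.1% of mt-Co1. The counts of these genes are therefore uncertain. mt-Nd6, mt-Nd1 and mt-Cytb shared none with another gene. The 4 untested members of the list had at most 9 counts in any WT library.

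Markers of other cell types were mostly absent. All 8 mast cell and basophil markers had at most 1 count in any WT library, Ly6g and the T and NK cell markers Cd3e, Cd3g, Ncr1 and Nkg7 had none, and Ms4a1, of B cells, had none. Of 8 erythroid markers none was tested, and the highest count was 25, in Hbb-bs. In the neutrophil list 2 of 11 were tested, S100a8 (7.10 to 28.4, called higher) and Mmp8 (not called). Summed, this list stood at 63.1 to 89.0 CPM in WT M0 and 78 to 92.2 CPM in WT M2. Most of that lay on Mmp8, since each untested member had at most 8 counts. For T and NK cells the tested marker was Cd4 (38.4 to 15.0, called lower) and for B cells Cd79b (not called). For fibroblasts it was Postn (1.58 to 15.0, called higher), while Col1a1 and Col3a1 had at most 2 counts. In the endothelial list Pecam1 rose (2.37) and Kdr fell (-1.70). Some markers given to other myeloid cells rose with IL-4. Zbtb46, a factor used to mark conventional dendritic cells, was at least 45.1-fold higher (2.26, 1.84 and 1.80 to 142, 100 and 158), while Flt3 had no count and Xcr1 at most 4. Of 5 eosinophil markers Siglecf rose from 1.13, 1.84 and 4.50 to 41.2, 40.4 and 41.9 and Ccr3 by 2.24. Of 8 osteoclast markers 6 were tested, with 5 called higher and Nfatc1 lower. The part of other cells in these changes was not tested.

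Genes other than protein-coding made up 3050 of the genes tested, and 492 were called higher and 542 lower, 16.1% and 17.8% of them, against 23.7% and 21.8% of protein-coding genes. The 3050 include 74 identifiers that the annotation did not hold and whose class is unknown, with 21 higher and 17 lower. Long noncoding RNA (lncRNA) genes were 1513, with 264 higher and 282 lower, and TEC genes, an annotation class for transcripts that await experimental proof, were 878, with 129 higher and 163 lower. Of 80 miRNA genes 28 were higher and 3 lower, of 46 snoRNA genes 6 and 3, of 44 snRNA genes 4 and 9, and of 251 processed pseudogenes 22 and 33. The share of all counts on lncRNA genes was 2.16% to 2.31% in WT M0 and 2.10% to 2.15% in WT M2 (two-sided exact permutation test, p = 0.1, the smallest possible), and on TEC genes 0.683% to 0.836% and 0.709% to 0.733% (p = 1).

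The 6 largest lncRNA rises under the same rule as for protein-coding genes were Gm38575, Gm30605, Gm43847, Apol7d, Gm29483 and Gm49087, all with at most 1 count in any WT M0 library. Gm38575, on chromosome 10 from 85024181 to 85102462 of GRCm39, had 101, 109 and 141 normalized counts in WT M2 (at least 39.7-fold), and Gm29483, on chromosome 1 from 92641944 to 92658486, had 41.2, 40.4 and 39.7 (at least 13.7-fold). Apol7d (chromosome 1, 71690128 to 71788968), annotated as a lncRNA, runs opposite to Fn1, whose own rise is given above, and had 182, 165 and 179 (at least 59.4-fold). Gm43847 lies in the potassium channel gene Kcnd3 on the same strand. The largest falls were in Gm1720 (at least 7.57-fold), Gm10287 (at least 9.56-fold), Gm15675 (75.7, 119 and 90.9 to 6.34, 2.82 and 6.62), Gm13012 (at least 8.27-fold), Gm13822 (-3.56, or -4.17 with WT M2 1 left out) and Gm30382 (-3.48). Gm13012 runs opposite to Ece1 (-1.88) and Gm13822 opposite to the interferon-stimulated Oasl1 (-2.91). Of the lncRNAs known by name 11 of 30 were called higher, led by Mir22hg (1.14), Snhg1 (1.07) and Pvt1 (0.98), and 3 lower, led by Trp53cor1, or lincRNA-p21 (115, 101 and 111 to 26.4, 22.5 and 24.3, -2.15), and Morrbid (-2.14). Without the library numbered 2 of WT M0 the count of those called lower was 5 among the same genes. Malat1 (-0.15) and Neat1 (-0.22) were not called.

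In the other classes the largest rises were Gm44165, a TEC gene inside the receptor gene Tarm1 (at least 8.53-fold), Gvin-ps5, a pseudogene of the interferon-inducible very large GTPases (at least 28.4-fold, with 78.6% of its 50-base stretches found elsewhere), and Gm42480, a TEC gene inside the protocadherin gene Pcdh7 (at least 43.7-fold). The largest falls were the identifier ENSMUSG00000054589, which the annotation did not hold (54.5 ± 3.89 to 6.95 ± 2.59, SD, n = 3), Gm47727, a processed pseudogene inside Aoah (-2.84, with Aoah at -2.41), and Gvin3 (1448, 828 and 1110 to 153, 173 and 164, -2.78). Gvin-ps5 and Gvin3, of the same family, moved in opposite directions by these counts. Of the Gvin3 stretches 45.6% also occur in other genes, so the counts of both are uncertain.

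Many noncoding calls lay inside a protein-coding gene read from the same strand, the host, and followed it. Of 129 TEC genes called higher 91 were inside a host, and 86 of these hosts were also called higher and none lower. Of 163 TEC genes called lower 138 had a host, of which 108 were called lower and none higher. Among the 442 TEC genes inside a host that were not called, 82 hosts were higher and 70 lower. Pcdh7 alone, at 56.5, 51.6 and 39.6 normalized counts in WT M0 against 2916, 2672 and 3990 in WT M2 (6.03 ± 0.18 SE), held 14 noncoding genes called higher, and Cdk14 (-0.96) held 8 called lower. For lncRNAs 25 of 264 higher and 41 of 282 lower genes had a host, and the host went the same way in 19 and 33 of them. Among the 138 lncRNAs inside a host that were not called, 15 hosts were higher and 28 lower. More lncRNAs overlapped a gene of the opposite strand without lying in a host: for 146 called higher, the opposite gene was higher in 98 and lower in 7, and for 154 called lower it was lower in 75 and higher in 14. For 585 such lncRNAs that were not called, the opposite gene was higher in 116 and lower in 114. Libraries depleted of ribosomal RNA hold unspliced transcripts, and reads of a host's introns can be counted on a gene inside them. The part of such reads was not tested.

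**Figure D5:**
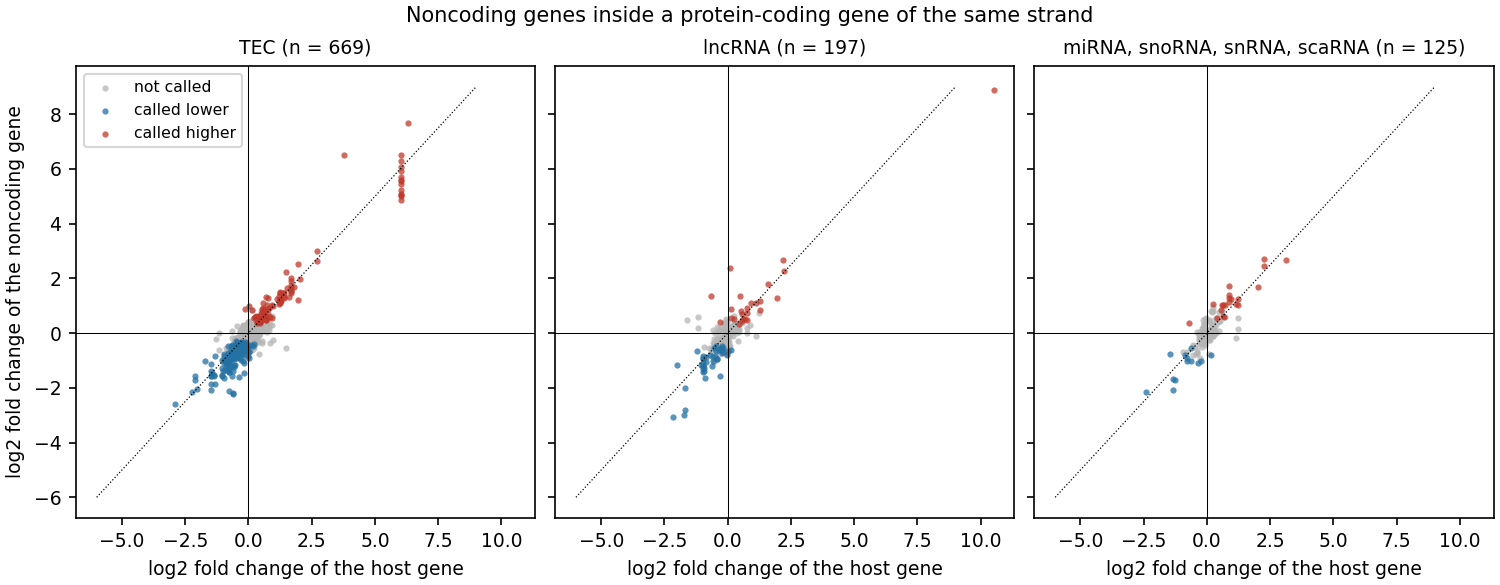
Log2 fold change of noncoding genes (y axis) against that of the protein-coding gene of the same strand that contains them (x axis), in 3 panels for TEC, lncRNA and small RNA genes, with called genes in red (higher) and blue (lower), genes not called in grey, and equality as a dotted line. The points follow the dotted line, and the column near 6 in the first panel is Pcdh7. Genes with at most 3 counts in every library of 1 state are plotted at their fitted value.

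The miRNA class held 2 kinds of genes. Of the 80 tested, 14 were unnamed loci of 138 to 144 bases that lie opposite an H2A histone gene, among them H2ac4, H2ac10 and H2ax. Of these 12 were called higher and none lower, the H2A gene opposite was called the same way in 13 of the 14, and the log2 fold changes of a pair differed by at most 0.49. Gm54518, opposite H2ac4, had 53, 61 and 38 counts in WT M0 against 127, 132 and 101 in WT M2 (log2 fold change 1.31 ± 0.19 SE), and H2ac4 rose by 1.15. In WT M2 the level of such a locus was 10.5% to 48.0% of the H2A gene's. The counting was stranded, and the annotation does not tie these loci to a known mature miRNA. These loci were looked at after their values had been seen.

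Of the other 66 miRNA genes 16 were called higher and 3 lower. All 3 that fell and 12 of the 16 that rose lay in a protein-coding host that moved the same way. Of all 49 miRNA genes not called, 35 lay in a host, of which 6 were higher and 10 lower. Mir511, in an intron of Mrc1, rose by 0.63 beside its host's 0.62, Mir342 by 1.06 in Evl (1.14), Mir23b by 1.27 in Aopep (0.85) and Mir1192 by 2.67 in Klf9 (3.11), while Mir3971 fell by 1.70 on the log2 scale in Slc43a2 (-1.27). The 4 that rose without a host were Mir221, Mir222, Mirlet7c-1 and Mir99a, which form neighbouring pairs. Mir221 had 45, 47 and 50 counts in WT M0 against 132, 146 and 134 in WT M2 (1.61 ± 0.14 SE, adjusted p = 4.2e-07), and Mir222, its neighbour on chromosome X, had 15, 16 and 21 against 53, 41 and 77 (1.80 ± 0.30 SE). Mirlet7c-1 had 6, 17 and 15 against 40, 58 and 33 (1.85), and Mir99a 7, 6 and 11 against 19, 25 and 21 (1.5), on chromosome 16. These libraries of longer RNA count primary transcripts and hairpins, so the values are not levels of mature miRNA. Mature sequences of the named genes from RefSeq (GRCm38.p6), which held 15 of the 31 called miRNA genes, are shown because they tell which targets each could pair with. Capitals mark the seed, bases 2 to 8:
mmu-miR-221-3p: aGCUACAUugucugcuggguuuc
mmu-miR-222-3p: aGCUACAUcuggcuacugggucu
mmu-let-7c-5p: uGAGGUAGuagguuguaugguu
mmu-miR-99a-5p: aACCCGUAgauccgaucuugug
mmu-miR-511-3p: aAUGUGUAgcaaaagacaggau
mmu-miR-342-3p: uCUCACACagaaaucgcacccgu
The miR-221-3p and miR-222-3p seeds are the same, and the other 4 differ from it and from each other.

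Whether the response depends on the genotype was tested as the interaction of genotype and IL-4 over all 12 libraries. With edgeR 0 of 14825 genes (0.0%) had an adjusted p under 0.05, 1327 had an unadjusted p under 0.05, and the DESeq2 Wald test gave 72 genes. The 5 genes with the smallest p were Prokr1, H1f5, H2bc15, H3c1 and Mmp14. H1f5, a linker histone, changed by 1.36 on the log2 scale in WT and 0.27 in miR-210 KO (difference -1.09 ± 0.19 SE, adjusted p = 0.095, edgeR), H3c1 by 1.12 and 0.12, H2bc15 by 1.07 and 0.11, and Prokr1, a prokineticin receptor, by 2.73 and 1.90 (adjusted p = 0.075). Of the cell cycle genes, Cdc20 changed by 1.57 in WT and 0.69 in miR-210 KO (adjusted p of the difference 0.42, edgeR), and the adjusted p was 0.67 to 0.68 for Cdca2, Cdc25c and Cdc25b. For Arg1 the changes were 5.53 and 4.71 (adjusted p = 0.095). Among the other M2 markers, Mrc1 went the other way, by 0.61 in WT and 0.89 in miR-210 KO (adjusted p = 0.59, edgeR). Fn1 changed by 9.68 and 9.22 (adjusted p = 0.70, edgeR) and Retnla by 14.9 and 14.7. For these markers the adjusted p of the difference was 0.54 or more under every alternative. The 5 genes and Arg1 passed an adjusted p of 0.05 under some alternatives, with DESeq2 values of 0.00099 for Prokr1 and H1f5, 0.0020 for H2bc15, H3c1 and Arg1 and 0.0055 for Mmp14. Without the library numbered 2 of WT M0, edgeR gave 0.016 for Prokr1, 0.0033 for H1f5 and H2bc15, 0.0036 for H3c1 and 0.028 for Mmp14, and without the library numbered 1 it gave 0.030 for Prokr1 and 0.018 for Arg1. Prokr1 also passed with WT M2 2 left out (0.045). For Cdc20, Cdca2, Cdc25c and Cdc25b the lowest adjusted p over the alternatives was 0.34. Without the library numbered 2 of WT M0 the interaction gave 65 genes, and 5 without the library numbered 1.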

How the data were processed

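RNA-seq of the 3 WT M0 and 3 WT M2 libraries was analysed, with the 6 miR-210 KO libraries in the interaction test only. Libraries were assigned to groups by column names, and the numbers 1 to 3 were not tied to samples. The authors removed ribosomal RNA, sequenced stranded paired-end libraries, trimmed reads (Trimmomatic), removed duplicates (Picard), aligned to GRCm39 (STAR) and counted per gene and strand (featureCounts). Removing duplicates can lower the counts of short and abundant genes. The deposited raw counts, without normalization, were used for every test. The deposited signal, in which the authors scaled those counts by size factors, served as an alternative for shares only.

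Genes were tested in R 4.3.3 with edgeR 4.0.16 (TMM, filterByExpr, glmQLFTest), with Benjamini-Hochberg adjustment over 14266 genes. An SE was taken as the log2 fold change over the root of its F statistic. A GENCODE annotation of GRCm39 held 56323 of the 56941 identifiers and gave symbols and biotypes. In counts simulated from these data, 200 of the better-counted genes were changed by 1 on the log2 scale. There edgeR recovered 94.5% of them over 14035 genes, with 5.03% false calls. The simulation held far fewer changed genes than were called here and no smaller changes, so these rates do not carry over to the calls. A count of 0 allows up to 3 counts of a library's total, which covers counting error only. Alternatives were DESeq2 1.42.0, other normalizations, filters and fold limits, the library number as a block, one fit to the 12 libraries, and leaving out each library. The members, the 31 gene lists and 12 marker lists were chosen with earlier results of these data known. The genes named are the 4 M2 markers, the 4 cell cycle genes of the study, the largest fitted changes (12 protein-coding, 6 lncRNA and 3 of other classes in each direction), the 5 largest gains and losses per kilobase, the 5 highest genes at or under 3 counts in the other state, up to 5 called and 3 uncalled members of each list and direction, and the 5 smallest interaction p. Others were chosen after their values were seen, among them histone and miRNA genes and members beyond these limits. Results for some genes of the lists are not reported here.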

Additional observations from a re-analysis of the deposited data

How the results depend on the processing

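Calling only changes beyond 1 on the log2 scale left 1211 genes higher and 831 lower, 549 other than protein-coding, and 1446 protein-coding above the limit on the average count. The other alternatives with all libraries kept these 4 counts within 1.5 times, and DESeq2 called 5429 genes, of which 5422 were among the 6137 called by edgeR, none in the opposite direction. Leaving out 1 library at a time gave 2962 to 3207 genes higher, 2662 to 2943 lower, 900 to 1046 other than protein-coding and 4659 to 5015 protein-coding. The interaction gave 72 genes with DESeq2 and 0 to 65 with 1 library left out, 65 of them without the library numbered 2 of WT M0. The difference in the share of counts on TEC genes, WT M2 minus WT M0, was -0.0166 percentage points with all libraries and changed sign without that library, with a range of -0.0439 to 0.0327 when 1 library was left out.

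The numbers of the libraries showed no pairing: the deviations of same-numbered libraries correlated at -0.0655, -0.171 and -0.0765. Those of differently numbered libraries correlated at -0.109 to 0.179. With so few libraries per state a weak pairing would not be seen. With the library number as a block 3071 genes were called higher and 2879 lower, and the interaction gave 0. Of the 371 genes considered for naming, 370 kept their call under the block and 370 under DESeq2, and none changed direction under any alternative. Of the counts of list members called, leaving out 1 library raised from 1 to 2 those called lower in mitosis (WT M0 1) and sterol synthesis (WT M2 3), and no filter on low counts raised the chemokines called higher from 9 to 14 and the DNA replication genes from 6 to 10. Endothelial markers called lower rose from 1 to 2 without WT M0 2 or any WT M2 library. Not called with all libraries, Spi1 was called higher without WT M0 3 or WT M2 1, Ang higher without WT M2 1, and Mmp14 lower without WT M0 3 or WT M2 3. At these depths a gene under about 10 counts in every library was mostly not tested.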
